A study of Mus musculus with 79 samples.

Results

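The 5 dopamine receptor genes of the mouse were followed across 79 libraries of ribosome-bound mRNA. The genes were Drd1a (the table's symbol for the D1 receptor gene, now Drd1), Drd2, Drd3, Drd4 and Drd5, chosen by name as 5 of the 25899 genes listed. The method, bacTRAP, uses mice that carry a bacterial artificial chromosome (BAC, a large piece of genomic DNA) in which a receptor promoter drives the ribosomal protein L10a fused to eGFP. Tagged ribosomes were pulled down with a GFP antibody, together with the mRNA they carried. The promoter was that of the D1a receptor in D1 libraries and that of the D2 receptor in D2 libraries. There were 15 D1 and 16 D2 libraries from dorsal striatum, 15 D1 and 14 D2 libraries from ventral striatum (nucleus accumbens), and 19 D1 libraries from prefrontal cortex. All lines were kept as heterozygotes on C57BL/6J, no drug treatment is described, and every library pooled tissue from 3 mice, with both sexes present in the 77 libraries whose sex label is complete. The age of the mice and the number of founder lines were not given in the sources used here. Sharing of mice between regions is not stated in the labels, so the p-values measure the spread between pools as deposited.

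Dopamine receptors are G protein-coupled receptors of a pair of families. The D1-like receptors, D1 and D5, couple to the stimulatory proteins Gs and Golf and raise cAMP, whereas the D2-like receptors, D2, D3 and D4, couple to Gi and Go and lower it. In the striatum the D1 receptor marks projection neurons of the direct pathway and the D2 receptor marks those of the indirect pathway. The D2 receptor is also made by cholinergic interneurons, and the D3 receptor is known for its place in the ventral striatum.

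All 5 genes have an entry among RefSeq's promoter sequences (assembly GRCm38.p6). The Drd1 and Drd2 promoters are shown because these receptors' promoters drove the tag and so set which cells each library came from; the bases are those of the reference genome, not of the transgenes. Each is written 5′ to 3′ along the gene, and capitals mark a GC box (GGGCGG on either strand). The Drd1 bases are chr13:54055659-54055908 on the minus strand, the 250 bases before the outer of its RefSeq starts. The Drd2 bases are chr9:49340153-49340359 on the plus strand, the 207 bases of its window that lie before the RefSeq gene.
Drd1: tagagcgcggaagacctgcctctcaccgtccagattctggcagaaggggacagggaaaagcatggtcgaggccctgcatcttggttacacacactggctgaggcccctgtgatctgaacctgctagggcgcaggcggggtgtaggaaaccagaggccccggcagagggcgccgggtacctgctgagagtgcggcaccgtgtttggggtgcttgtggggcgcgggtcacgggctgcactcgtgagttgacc
Drd2: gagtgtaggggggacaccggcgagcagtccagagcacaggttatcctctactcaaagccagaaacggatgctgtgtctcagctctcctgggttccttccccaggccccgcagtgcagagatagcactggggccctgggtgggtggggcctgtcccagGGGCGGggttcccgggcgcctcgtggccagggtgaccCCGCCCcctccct

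RefSeq's table gives 250 bases before an annotated start, which need not be a gene's outermost one: the Drd3 window lies inside that gene's span, the printed Drd1 window and that of Drd4 reach a little way into the genes as GENCODE places them, and most of the Drd5 window lies inside its gene on that annotation. Over these windows GC content was 64.0% for the printed Drd1 window, 68.8% for Drd2, 39.2% for Drd3, 56.8% for Drd4 and 71.2% for Drd5, beside a median of 52.4% over 32851 promoters. The Drd2 window held 2 GC boxes, that of Drd4 held 3 and that of Drd5 held 2, while the printed Drd1 window and that of Drd3 held 0. Drd1 has a second window, before its inner RefSeq start, with 60.8% GC and 1 GC box. A GC box was present in 32.7% of all promoters of this length. The letters TATAAA, the core of a TATA box, were found on either strand in 12.4% of promoters and in 0 of the receptor windows.

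In GENCODE vM21 on GRCm38, Drd1 lies at chr13:54051183-54055705 on the minus strand and Drd2 at chr9:49340627-49408177 on the plus strand. Drd3 lies at chr16:43754026-43822932, Drd4 at chr7:141292006-141296464 and Drd5 at chr5:38319367-38322518, all on the plus strand. Drd5 is annotated as 1 exon and overlaps an antisense gene, Gm26560. Whether the authors' counting used strand is not given in the sources used here, so reads from that pair cannot be told apart. Drd3 overlaps the small RNA gene Gm25996 on its own strand.

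The libraries held 7.35 to 30.8 M (mega) reads in listed genes, and values are in CPM, reads per gene scaled to a library total that also held reads outside listed genes. Differences are of log2(CPM + 0.5), tested with limma over all genes and called at a Benjamini-Hochberg adjusted p under 0.05; this scale understates differences of genes under about 1 CPM. A gene was kept if the number of libraries with at least 1 CPM was no lower than the size of the smaller group, and receptor genes below that were fitted with every gene that had a read. Marker genes followed the labels in striatum, where summed D1 projection neuron markers (Pdyn, Tac1, Isl1, Chrm4, Eya1) ran from 352 to 692 CPM in D1 and from 13.9 to 61.4 CPM in D2 libraries. In D1 prefrontal cortex they ran from 22.7 to 82.8 CPM and overlapped the D2 striatal range, so these markers do not set cortical D1 libraries apart. Summed D2 projection neuron markers (Penk, Adora2a, Gpr6, Sp9, Grik3) ran from 1246 to 3355 CPM in D2 libraries and from 48.3 to 258 CPM in D1 libraries. Summed cortical glutamatergic markers ran from 565 to 922 CPM in prefrontal cortex and reached 140 CPM in striatal libraries. In such bulk material, fewer cells of a type and less RNA per cell cannot be told apart. Library names begin with 1 of 4 letter codes of unstated meaning; EM is found in every group (53 libraries), while OdP is found in 13 D2 libraries and 1 D1 library, so some results are also given within EM libraries.

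Read totals set apart abundant from scarce receptors. Drd2 had 1555258 reads over the 79 libraries and Drd1a had 316563, and both had reads in 79 of 79 libraries. Drd3 had 3216 reads in 51 libraries, Drd5 had 2036 reads in 69 libraries, and Drd4 had 83 reads in 19 libraries. Scaled to the length of their GENCODE exons, the level of Drd2 in D2 dorsal striatum was 450 ± 88.8 CPM per kb (SD, n = 16), and that of Drd1a in D1 dorsal striatum was 62.0 ± 8.68 CPM per kb (SD, n = 15). On the same scale in prefrontal cortex, Drd1a was at 5.18 ± 2.36, Drd2 at 0.425 ± 0.241 and Drd5 at 0.409 ± 0.148 CPM per kb (SD, n = 19). The gene model that the authors counted is not given, so these lengths may differ from theirs.

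**Figure D1:**
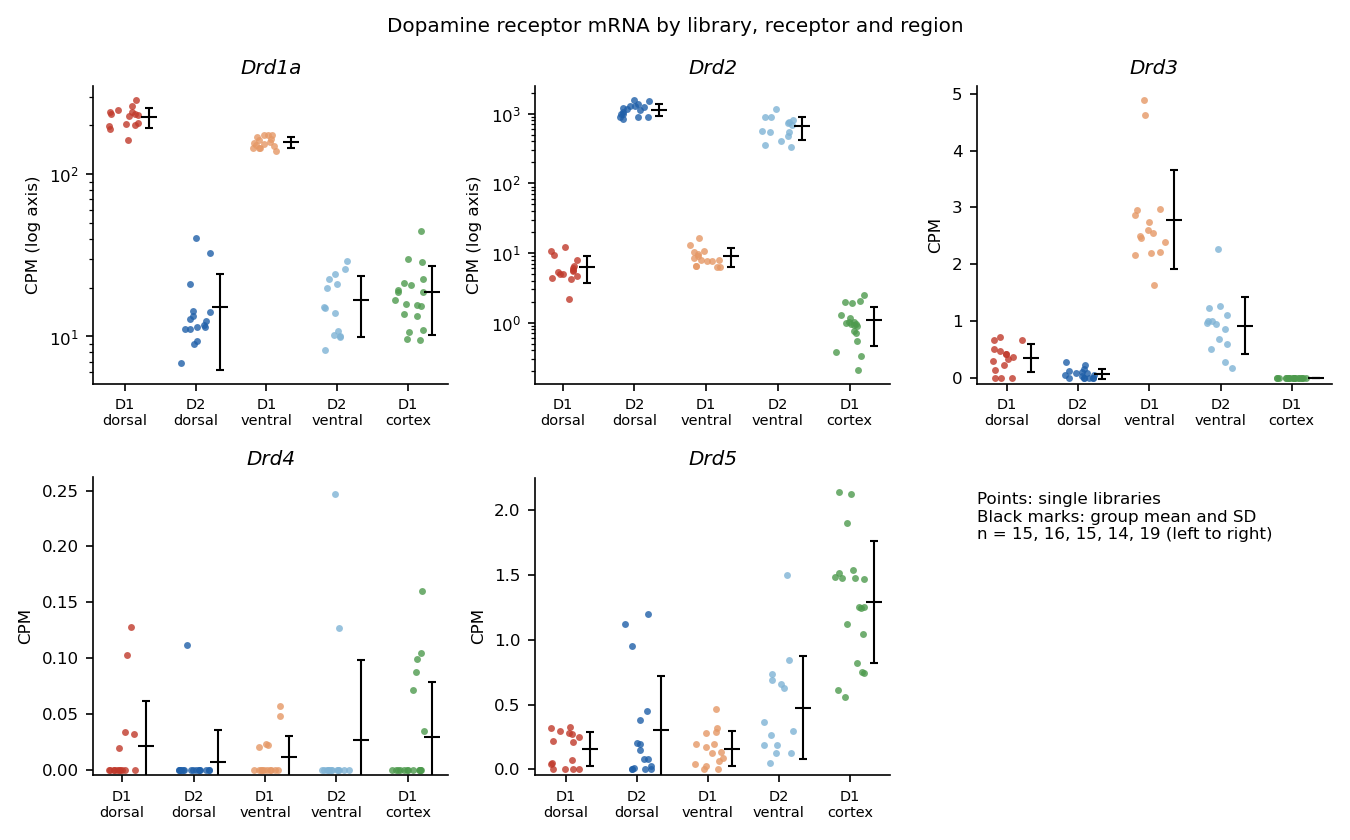
CPM of each receptor gene in each library by receptor and region; points are libraries, black marks the group mean and SD, and the y axis is logarithmic for Drd1a and Drd2 and linear for the others (SD bars that reach below 0 are cut at the axis). Drd2 splits by receptor line, and Drd1a does so within striatum. Cortical D1 libraries (9.52 to 44.8 CPM) overlap the D2 libraries in Drd1a. Drd3 is highest in D1 ventral striatum (2.78 CPM) and 0 in cortex, and Drd5 is highest in cortex (1.29 CPM).

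Drd1a, the receptor gene whose promoter marks the D1 lines, was high in both striatal D1 groups. In D1 dorsal striatum the lowest library had 163 CPM, the median 232 and the highest 288, with a mean of 225 ± 31.5 (SD, n = 15). In D2 dorsal striatum the values were 6.86, 12.1 and 40.6 CPM, with a mean of 15.2 ± 9.01 (SD, n = 16). Every D1 library stood above every D2 library, and the log2 difference was 3.98 ± 0.16 (SE; limma adjusted p = 5.12e-21). In this comparison 25.9% of filtered genes were called, 17.2% with no filter. D2 libraries held 6.77% of the D1 level. Within EM libraries the difference was 3.55. Cortical glutamatergic markers were higher in the same D1 libraries, with 5 of 5 called and a summed level of 33.2 to 140 CPM beside 1.56 to 37.1 CPM in D2 libraries; their part in the level of Drd1a was not tested.

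In ventral striatum, Drd1a ran from 139 over a median of 156 to 173 CPM in D1 libraries, with a mean of 157 ± 11.5 (SD, n = 15). Its spread there was the smallest of any receptor gene in any group, a coefficient of variation of 7.34%. D2 ventral libraries had 8.23, 15.1 and 29.1 CPM, with a mean of 16.8 ± 6.86 (SD, n = 14). The groups did not overlap, the log2 difference was 3.29 ± 0.14 (SE; limma adjusted p = 8.34e-20), and D2 libraries held 10.7% of the D1 level. Within EM libraries the difference was 2.93. In this comparison 47.7% of filtered genes were called, and 29.9% with no filter. Cortical glutamatergic markers were higher in D1 ventral libraries too, with 5 of 5 called. Their summed level ran from 18.1 to 115 CPM beside 3.92 to 84.5 CPM in D2 ventral libraries. Their part in the level of Drd1a was not tested here either.

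Between regions, D1 libraries had more Drd1a in dorsal than in ventral striatum, by 0.51 ± 0.07 on the log2 scale (SE; limma adjusted p = 2.40e-07), and 14 of 15 dorsal libraries stood above every ventral one. Here 34.6% of filtered genes were called (22.8% with no filter). The median of all filtered genes was at -0.12, with 1144 genes higher and 2774 lower in dorsal libraries; in edgeR, which rescales libraries to one another, 28.6% were called, the median was 0.01 and the split 1745 to 1500. The difference of Drd1a was called in all 13 settings, between 0.47 and 0.63. In D2 libraries Drd1a differed by -0.19 ± 0.21 between the regions (SE; limma adjusted p = 0.537), and this was called in 0 of 13 settings.

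Prefrontal cortex D1 libraries had far less Drd1a than the striatal ones. Their values were 9.52, 16.7 and 44.8 CPM (lowest, median, highest), with a mean of 18.8 ± 8.55 (SD, n = 19). All 19 lay below every striatal D1 library, by 3.65 ± 0.14 against dorsal striatum and 3.14 ± 0.14 against ventral striatum on the log2 scale (SE; limma adjusted p = 1.61e-23 and 1.21e-22). In those comparisons 54.8% and 62.8% of filtered genes were called, and 41.9% and 47.0% with no filter. D1 cortical libraries were close in Drd1a to the D2 striatal groups: the order of means was cortex, D2 ventral and D2 dorsal striatum. Neighbours in that order did not differ beyond their spread (two-sided permutation p = 0.513 and 0.588, unadjusted among 20 such neighbour pairs).

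Drd2, the receptor gene that marks indirect pathway neurons, reached the highest CPM of the family. D2 dorsal libraries had 828, 1146 and 1596 CPM (lowest, median, highest), with a mean of 1146 ± 226 (SD, n = 16). D1 dorsal libraries had 2.16, 5.53 and 12.2 CPM, with a mean of 6.30 ± 2.63 (SD, n = 15). The groups were 182-fold apart in their means with no overlap, and the log2 difference of D1 against D2 was -7.47 ± 0.15 (SE; limma adjusted p = 2.43e-31). D1 libraries thus held 0.550% of the D2 level, whereas D2 libraries held 6.77% of the D1 level of Drd1a.

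In ventral striatum, D2 libraries had 337, 625 and 1184 CPM of Drd2, with a mean of 656 ± 240 (SD, n = 14). D1 ventral libraries had 6.31, 7.98 and 16.2 CPM, with a mean of 8.97 ± 2.73 (SD, n = 15). Again there was no overlap, and the log2 difference was -6.07 ± 0.16 (SE; limma adjusted p = 9.01e-27), with D1 libraries at 1.37% of the D2 level. In D1 prefrontal cortex Drd2 was at 0.209, 0.964 and 2.46 CPM, with a mean of 1.08 ± 0.615 (SD, n = 19). That was lower than in D1 dorsal striatum by 2.11 ± 0.18 and than in D1 ventral striatum by 2.63 ± 0.16 on the log2 scale (SE; limma adjusted p = 3.43e-13 and 3.07e-18). In those comparisons 54.8% and 62.8% of filtered genes were called. Drd2 reached 1 CPM in 8 of 19 cortical and in all striatal D1 libraries, so it passed the filter through the latter. Both differences were called in all 13 settings, which included a fit with no filter.

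The regional difference of Drd2 had opposite signs in the 2 lines. In D2 libraries the dorsal level exceeded the ventral one by 0.87 ± 0.15 (SE; limma adjusted p = 1.90e-05, with 28.5% of filtered genes called), although 7 of 16 dorsal libraries stood above every ventral one. In D1 libraries it was lower in dorsal striatum by 0.53 ± 0.16 (SE; limma adjusted p = 0.0110). That call was lost with edgeR, which gave -0.41 with an adjusted p of 0.0690, and with DESeq2, which gave -0.40 with an adjusted p of 0.0646. The receptor by region interaction, the D1 minus D2 difference in dorsal minus that in ventral striatum, was -1.40 ± 0.22 (SE; limma adjusted p = 1.82e-05). It was called in all 13 settings, between -1.56 and -1.10, where 2.64% of filtered genes were called and 1.51% with no filter. All 5 D2 projection neuron markers moved the same way as Drd2: each was higher in dorsal striatum in D2 libraries, lower there in D1 libraries, and called in the interaction, with a median of -1.93 beside 0.01 over all genes. Their part in the result for Drd2 was not tested. For Drd1a the interaction was 0.70 ± 0.22 (SE; limma adjusted p = 0.0748); leaving out any 1 of 4 D2 libraries (dorsal replicates 1 and 2, ventral replicates 4 and 10) brought it to a call, with adjusted p = 0.0124, 0.0234, 0.0442 and 0.0346.

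**Figure D2:**
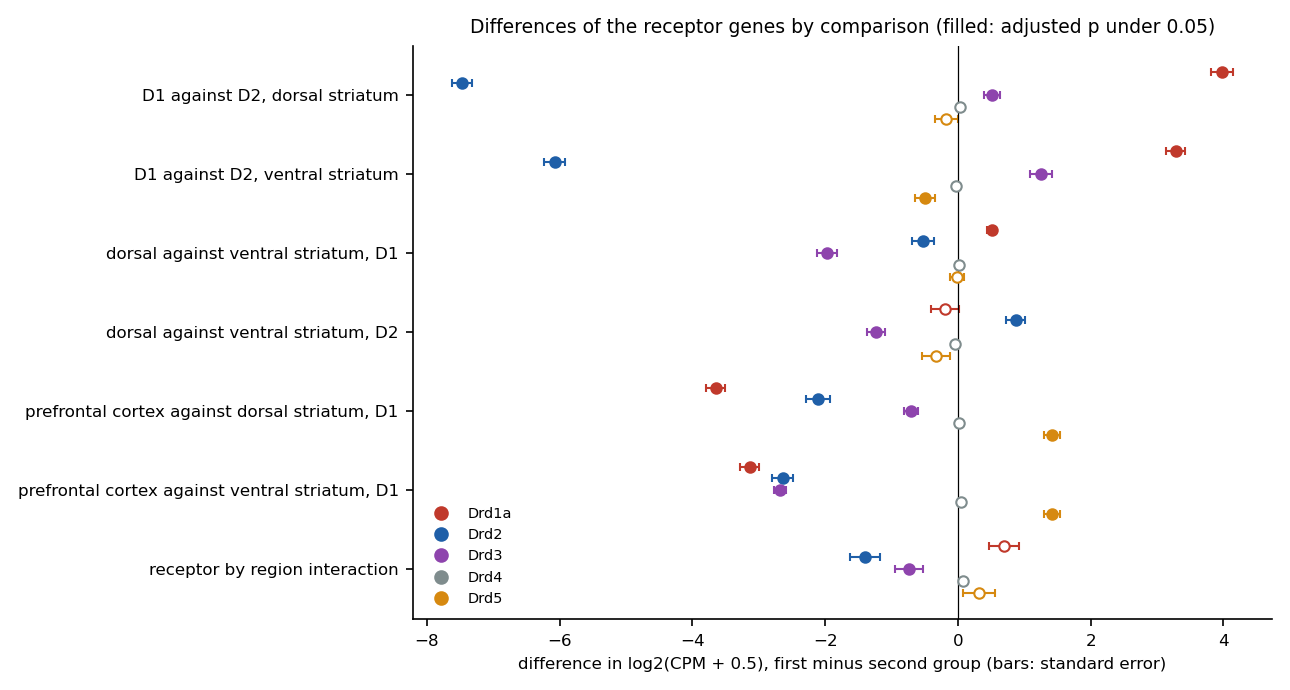
Log2(CPM + 0.5) differences of each receptor gene (first minus second group, bars SE) for 6 comparisons and the interaction; filled points have a limma adjusted p under 0.05. Drd2 spans the widest range, from -7.47 in the dorsal D1 to D2 comparison, Drd5 is positive in both cortex comparisons (1.42), and every Drd4 point is open and near 0.

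Within a library, the ratio of Drd1a to Drd2 reads does not depend on scaling. Its log2 value (0.5 read added to each) averaged 5.26 ± 0.46 in D1 dorsal, 4.18 ± 0.36 in D1 ventral and 4.22 ± 0.90 in D1 prefrontal cortex libraries (SD, n = 15, 15 and 19). In D2 libraries it averaged -6.37 ± 0.75 in dorsal and -5.31 ± 1.01 in ventral striatum (SD, n = 16 and 14). The lowest D1 library of any region was at 2.47 and the highest D2 library at -3.69, so each striatal library matched its labelled receptor by this ratio. In cortex the ratio cannot test the label, since there was no D2 cortical group. Drd1a averaged 18.8 CPM there, close to the D2 striatal groups, and Drd2 averaged 1.08 CPM. D2 libraries split by name code: OdP libraries averaged -6.94 in dorsal and -6.41 in ventral striatum, and EM libraries -5.80 and -4.63. In dorsal D2 libraries Drd1a was 20.0 ± 10.9 CPM in EM and 10.5 ± 1.93 in OdP libraries (SD, n = 8 and 8; exact permutation p = 0.00171). Drd2 was 1020 ± 243 and 1271 ± 121 CPM in the same libraries (SD; exact permutation p = 0.0211). In ventral D2 libraries Drd2 was 516 ± 151 CPM in EM (n = 8) and 903 ± 171 in OdP libraries (n = 5; SD; exact permutation p = 0.00311). Drd2 thus had a higher mean in dorsal than in ventral D2 libraries under both codes.

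**Figure D3:**
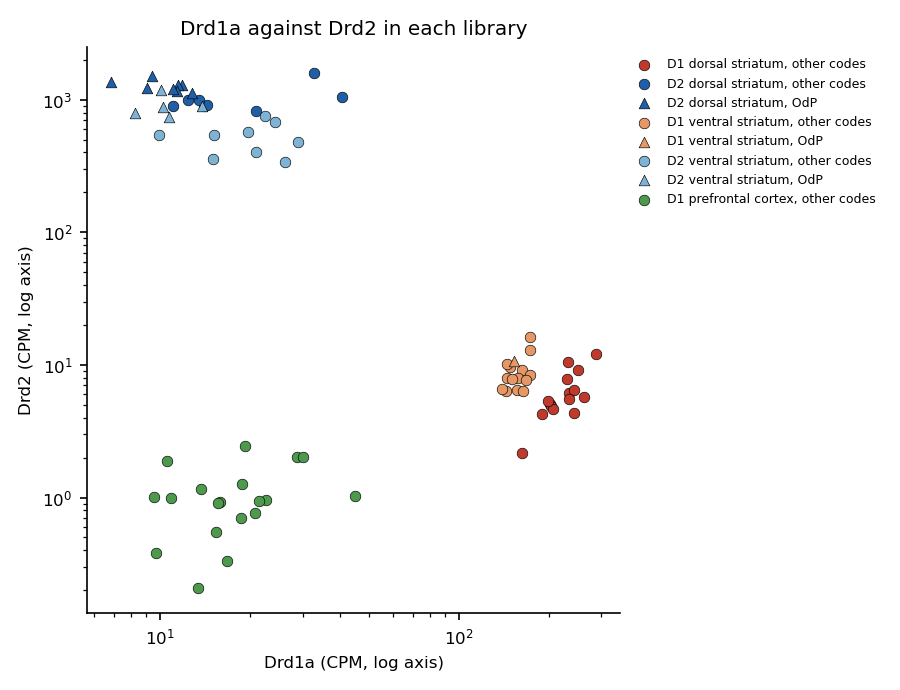
Drd1a against Drd2 in each of 79 libraries, both in CPM on log axes; triangles are libraries with the OdP code. D2 libraries lie at the upper left (337 to 1596 CPM of Drd2), striatal D1 libraries at the lower right (139 to 288 CPM of Drd1a), and cortical D1 libraries at the lower left.

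The lower receptor moved with markers of the opposite neuron class. In D2 dorsal libraries, Drd1a was correlated with the mean log2 level of 5 D1 projection neuron markers (Pdyn, Tac1, Isl1, Chrm4, Eya1), with r = 0.88 and rho = 0.91 (n = 16; permutation p = 2e-05 for both, the smallest that these resamples give; adjusted 8e-05 over 4 relations). In D2 ventral libraries r was 0.89 and rho 0.91 (n = 14; permutation p = 4e-05 for both, adjusted 8e-05). Without the 2 libraries farthest from the median marker level, r was 0.84 and 0.85. Within the 8 EM libraries of each group it was 0.86 and 0.82 (exact permutation p = 0.000942 and 0.00446, adjusted 0.00377 and 0.00893), and 0.71 and 0.56 without the 2 farthest of these. With only the 2 most abundant markers (Eya1, Tac1), r in D2 dorsal libraries was 0.75 and fell to 0.36 without the 2 farthest, so with those markers it rests on 2 libraries. Drd2 followed the D2 markers in D1 ventral libraries, with r = 0.67 and rho = 0.79 (n = 15; permutation p = 0.00968 and 0.00094, adjusted 0.0129 and 0.00125). Without the 2 farthest libraries r was 0.71, and within 11 EM libraries it was 0.61 (permutation p = 0.0668, adjusted 0.0890) with rho 0.67 (permutation p = 0.0284, adjusted 0.0378). In D1 dorsal libraries r was 0.49 and rho 0.53 (n = 15; permutation p = 0.0639 and 0.0471, adjusted to the same values), and r was 0.52 without the 2 farthest. Within 11 EM libraries r was 0.49 and rho 0.55 (permutation p = 0.108 and 0.0866, adjusted to the same values).

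**Figure D4:**
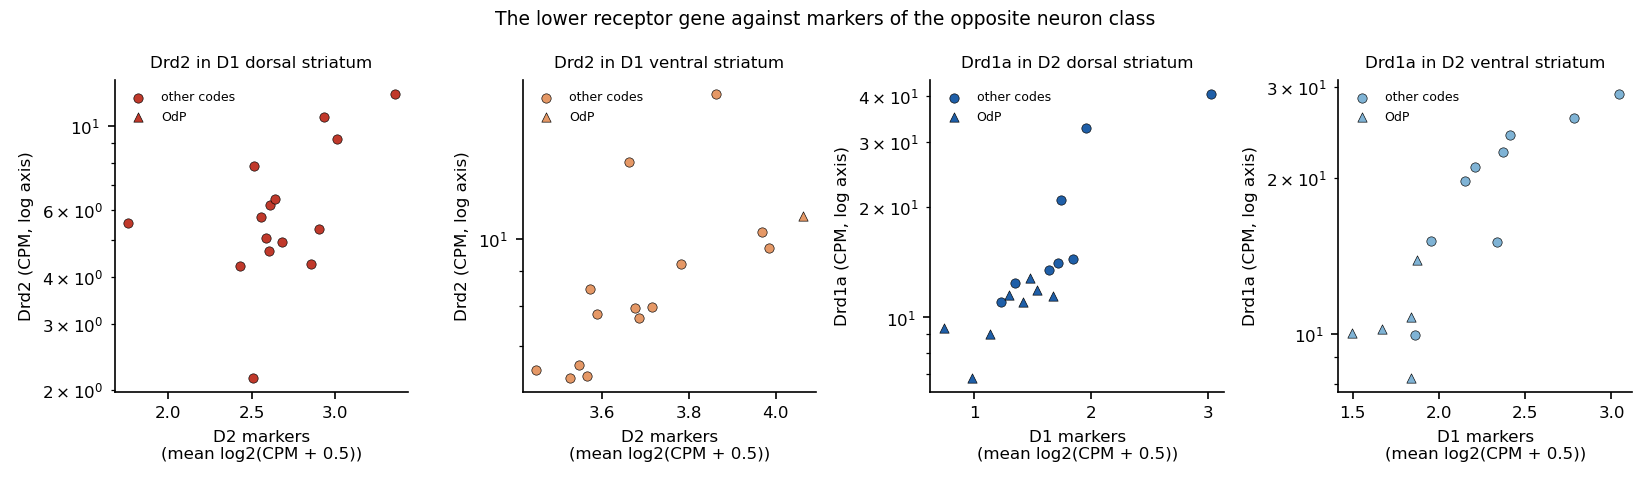
CPM (log axis) of the lower receptor gene against the mean log2(CPM + 0.5) of 5 markers of the opposite projection neuron class, in each striatal group; triangles are OdP libraries. The points of Drd1a in both D2 groups rise along the marker level (r = 0.88 and 0.89), and those of Drd2 in D1 dorsal striatum scatter most (r = 0.49).

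Drd3, a D2-like receptor gene, was highest in ventral striatum and higher in D1 than in D2 libraries. D1 ventral libraries had 1.64, 2.55 and 4.89 CPM (lowest, median, highest), with a mean of 2.78 ± 0.872 (SD, n = 15). D2 ventral libraries had 0.177, 0.952 and 2.27 CPM, with a mean of 0.922 ± 0.509 (SD, n = 14). The means were 3.02-fold apart, 11 of 15 D1 libraries stood above every D2 library, and the log2 difference was 1.25 ± 0.16 (SE; limma adjusted p = 2.08e-07). Drd3 passed the filter here through D1 libraries, of which 15 of 15 reached 1 CPM beside 6 of 14 D2 libraries; with no filter the adjusted p was 1.19e-06.

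In dorsal striatum Drd3 was scarce. D1 dorsal libraries had 0, 0.367 and 0.716 CPM, with a mean of 0.350 ± 0.242 (SD, n = 15) and 274 reads in all. D2 dorsal libraries had 0, 0.0519 and 0.279 CPM, with a mean of 0.0767 ± 0.0869 (SD, n = 16) and 56 reads in all. Drd3 did not pass the filter on level here; with every gene that had a read, D1 was higher by 0.51 ± 0.12 (SE; limma adjusted p = 0.00229), and 10 of 15 D1 libraries stood above every D2 library. The difference was 0.46 within EM libraries (adjusted p = 0.107) and also with the name code as a covariate (adjusted p = 0.0658), so it was not called in either.

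Drd3 also differed between regions in both lines. D1 ventral libraries all stood above D1 dorsal ones, and the log2 difference of dorsal against ventral was -1.97 ± 0.15 (SE; limma adjusted p = 4.35e-13). It passed that filter through ventral libraries alone, with 0 of 15 dorsal ones at 1 CPM, and with no filter the adjusted p was 5.63e-12. In D2 libraries it was -1.23 ± 0.14 with no filter (SE; limma adjusted p = 3.79e-08, with 18.6% of such genes called), a 12.0-fold difference in the means, and -0.998 within EM libraries. Prefrontal cortex had 0 Drd3 reads in 19 of 19 libraries. Taking 3 reads over that group, 0.00345 CPM, as the limit that a count of 0 allows (counting error only), cortex was at least 807-fold lower than D1 ventral and at least 101-fold lower than D1 dorsal striatum. The order of means was D1 ventral, D2 ventral, D1 dorsal, D2 dorsal and cortex. All 4 neighbour pairs in it differed by permutation (two-sided p from 2e-05 to 0.0003, unadjusted among 20 such pairs). The pairs were set by the same means that were then tested. The pair of dorsal groups was not called by limma within EM libraries, as given above. The interaction of Drd3 was -0.74 ± 0.21 (SE; limma adjusted p = 0.0348), but its sign turned on the scale: edgeR on whole reads gave 0.69 (adjusted p = 0.598) and DESeq2 gave 0.71 (adjusted p = 0.553). Drd3 passed the filter of that fit through ventral libraries alone, since its highest dorsal value was 0.716 CPM.

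Drd4, a D2-like receptor gene known from the cortex, was barely detected. Its highest value was 0.247 CPM, 17 reads in D2 ventral replicate 1, and it reached 1 CPM in 0 of 79 libraries. It had a read in 6 of 19 cortical, 5 of 15 D1 dorsal, 5 of 15 D1 ventral, 1 of 16 D2 dorsal and 2 of 14 D2 ventral libraries. None of the 6 comparisons was called by limma with no filter (unadjusted p from 0.196 to 0.599), and neither edgeR nor DESeq2 called one. Deaf1, the gene 0.712 kb beyond Drd4, had means of 9.09 to 12.1 CPM in the 5 groups.

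Drd5, a D1-like receptor gene, was highest in prefrontal cortex. Cortical libraries had 0.561, 1.25 and 2.14 CPM (lowest, median, highest), with a mean of 1.29 ± 0.467 (SD, n = 19). D1 dorsal libraries had 0, 0.213 and 0.328 CPM, with a mean of 0.157 ± 0.134 (SD, n = 15), and D1 ventral libraries had 0, 0.135 and 0.468 CPM, with a mean of 0.160 ± 0.135 (SD, n = 15). All 19 cortical libraries stood above all striatal D1 libraries. The log2 differences were 1.42 ± 0.12 against both regions (SE; limma adjusted p = 2.90e-12 and 1.54e-12), and the means were 8.20-fold and 8.04-fold apart. Markers of some other cells also stood higher in cortex: 5 of 5 cortical glutamatergic and 5 of 5 astrocyte markers were called higher against both regions, and 6 of 6 and 5 of 6 GABA interneuron markers, beside 54.8% and 62.8% of all filtered genes called in either direction. Some of these markers were scarce in striatum and passed the filter through cortical libraries, so the counts are a description. Of 3 tested oligodendrocyte markers, 0 were higher and 2 lower against dorsal striatum, and 1 higher and 1 lower against ventral striatum. The 1 tested microglia marker was not called against either region. Summed astrocyte markers ran from 9.40 to 55.4 CPM in cortex and from 2.12 to 15.9 CPM in striatal D1 libraries; the part of these cells in the level of Drd5 was not tested.

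Between the striatal lines, Drd5 was lower in D1 than in D2 ventral libraries. D2 ventral libraries had 0.0506, 0.333 and 1.501 CPM, with a mean of 0.475 ± 0.395 (SD, n = 14), and the log2 difference with no filter was -0.49 ± 0.15 (SE; limma adjusted p = 0.0140). The groups overlapped, with 6 of 14 D2 libraries above every D1 library. The call was lost within EM libraries (-0.52, adjusted p = 0.0650) and once each library's percentage of reads in genes was a covariate (-0.62, adjusted p = 0.0768), in a fit that called 5.80% of genes with no filter. D2 dorsal libraries had 0, 0.115 and 1.20 CPM, with a mean of 0.303 ± 0.416 (SD, n = 16), and D1 dorsal differed from them by -0.17 ± 0.17 (SE; limma adjusted p = 0.543). Cholinergic interneuron markers were higher in D2 libraries as well: their summed level ran from 8.11 to 21.8 CPM in D2 ventral and from 1.60 to 4.55 CPM in D1 ventral libraries, and 4 of 4 measured markers (Chat, Slc5a7, Lhx8, Slc17a8) were called, beside 47.7% of filtered genes. Chat, Slc5a7 and Lhx8 averaged under 1 CPM in D1 ventral libraries and passed the filter through D2 libraries, so that count is a description only. Over libraries, Drd5 and these markers were correlated with r = 0.52 and rho = 0.38 in D2 dorsal striatum (n = 16; permutation p = 0.0382 and 0.148, adjusted 0.0764 and 0.297). In D2 ventral striatum r was 0.46 and rho 0.25 (n = 14; permutation p = 0.0920 and 0.381, adjusted to the same values). Without the 2 farthest libraries r was 0.34 and 0.11, but in D2 dorsal striatum the same step gave 0.56 with the 2 most abundant markers and 0.83 within EM libraries. In D2 ventral striatum it gave -0.24 with the 2 most abundant markers and 0.02 within EM libraries. Neither relation passed the adjusted threshold; this pair of relations was chosen after the data were seen.

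Pools held 1 male in 33 libraries and 2 males in 44, with the label incomplete for 2. With group as a term, limma called none of the 5 receptor genes (unadjusted p from 0.00137 for Drd4 to 0.898 for Drd5; Drd1a was at 0.0451). It called 0.0961% of filtered genes and 0% with no filter. The share of filtered genes was 2.20% within EM libraries, 2.43% with the name code as a covariate and 1.61% with array weights. Drd4 had a read in 13 of 33 libraries with 1 male and in 5 of 44 with 2 males, 68 against 11 reads. EdgeR called that difference, -2.58 on the log2 scale with an adjusted p of 0.00845, in a fit with no filter that called 0.542% of genes; of the 68 reads, 17 came from D2 ventral replicate 1.

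Genes next to the receptors were described as well, 2 on each side in RefSeq order. Of 20 neighbours, 19 were in the table and 8 of them were under 1 CPM in every group (Msx2, Tmprss5, Gm4894, Tigit, Cdhr5, Sct, Otop1 and Slc2a9). Sfxn1, the gene of a mitochondrial serine carrier 15.998 kb from Drd1, split by receptor line. In D1 dorsal libraries it had 105, 164 and 221 CPM (lowest, median, highest) and in D2 dorsal libraries 10.4, 14.2 and 30.3 CPM, with no overlap. The log2 difference was 3.24 ± 0.14 in dorsal and 2.76 ± 0.11 in ventral striatum (SE; limma adjusted p = 6.44e-20 and 1.82e-20). In D1 prefrontal cortex, where Drd1a was 3.65 below the dorsal level on the log2 scale, Sfxn1 was 1.12 ± 0.11 below it (SE; limma adjusted p = 3.92e-12), at 51.6, 71.9 and 98.8 CPM. Hrh2, a histamine receptor gene 136 kb from Drd1, was higher in D1 than in D2 dorsal libraries by 1.06 ± 0.16 (SE; limma adjusted p = 4.26e-06). Its mean in D2 dorsal libraries was 0.813 CPM, under the level of the filter. In ventral striatum Hrh2 was not called between the lines (0.28 ± 0.15, SE, limma adjusted p = 0.130). Its interaction was 0.79 ± 0.22 (SE, limma adjusted p = 0.0338).

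Beyond the Drd2 gene, both neighbours were nearly confined to D2 libraries in these data. Ankk1, a protein kinase gene 7.02 kb away, had 7.57, 13.7 and 22.4 CPM in D2 dorsal and 5.49, 10.1 and 15.7 CPM in D2 ventral libraries, and reached 0.234 CPM in D1 libraries. Ttc12, 28.8 kb away, had 103, 128 and 214 CPM in D2 dorsal and 55.7, 83.2 and 120 CPM in D2 ventral libraries, and reached 0.698 CPM in D1 libraries. Its log2 difference of D1 against D2 was -7.75 ± 0.11 in dorsal and -7.05 ± 0.13 in ventral striatum (SE; limma adjusted p = 2.92e-36 and 4.51e-32); it passed the filter through D2 libraries alone. Like Drd2, Ttc12 was higher in dorsal than in ventral D2 libraries, by 0.71 ± 0.12 (SE; limma adjusted p = 2.46e-05). On the other side, Gm4894 (59.8 kb) and Tmprss5 (223 kb) had means of at most 0.118 CPM. Which stretch of genome the BACs carried is not given in the sources used here, and the part of the transgenes in these levels was not tested.

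**Figure D5:**
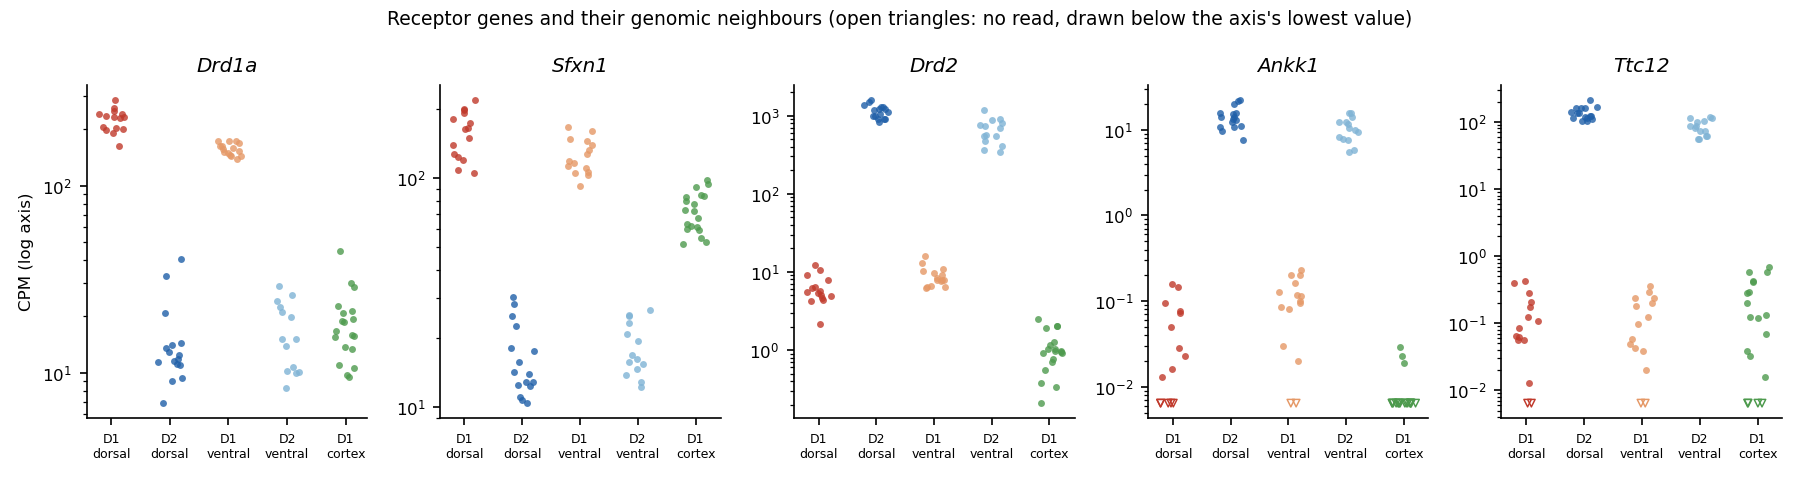
CPM on log axes of Drd1a and its neighbour Sfxn1, and of Drd2 and its neighbours Ankk1 and Ttc12, in each library by group; open triangles are libraries with no read. Sfxn1 follows the D1 lines but stays at 51.6 to 98.8 CPM in cortex, and Ttc12 has at least 55.7 CPM in every D2 library and at most 0.698 CPM in D1 libraries.

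The genes most like each receptor over all 79 libraries were taken by Pearson's r of log2(CPM + 0.5), as a description, among genes averaging at least 5 CPM in some group for Drd1a and Drd2 and at least 1 CPM for Drd3 and Drd5. For Drd1a they were Slc35d3 and Pdyn (both 0.94), Chrm4 (0.93), Cntnap3 (0.92) and Tac1 (0.91). For Drd2 they were Penk (0.98), Nt5e, Ankk1, Adora2a and Gpr6 (all 0.97). For Drd3 they were Dlk1 (0.93), Arhgap36, Ntn1 and Gpr101 (all 0.90) and Ahi1 (0.89). For Drd5 they were Nhsl1 and Hipk2 (both 0.79), Egfr (0.77), Homer2 and Hopx (both 0.76). The libraries share their group structure, so such values include the differences between the 5 groups. Drd4 had too few reads for this.

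Of 46 genes that act with dopamine receptors or on dopamine, the tested ones were counted in each comparison. Between D1 and D2, 6 of 42 were called higher and 10 lower in D1 dorsal striatum, and 18 of 44 higher and 12 lower in D1 ventral striatum, beside 25.9% and 47.7% of all filtered genes called in either direction. Scaled to reads in listed genes, the ventral split was 21 to 9, and that of all filtered genes moved from 2751 higher and 2692 lower to 3702 and 1885 (49.0% called). The dorsal split turned on the setting: it was 8 to 8 with quantile normalization (27.5% of all filtered genes called) and 7 to 5 within EM libraries (12.3%). Within EM libraries the ventral split was 11 to 9 (40.1%). Among the larger differences in dorsal striatum were Gnai1, an inhibitory G protein subunit (1.54 ± 0.16), Adrbk2, a receptor kinase (0.87 ± 0.19), and Gnal, which encodes Golf (-0.72 ± 0.13; SE, limma adjusted p up to 0.000794). In ventral striatum they included Gipc1 (0.92 ± 0.21), a scaffold that binds D2-like receptors, Caly (0.82 ± 0.13), which encodes calcyon, and Gnao1, which encodes Go (-0.77 ± 0.09; SE, limma adjusted p up to 0.000651).

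Between regions, 10 of 44 such genes were higher and 15 lower in dorsal than in ventral D1 libraries, and 12 of 43 higher and 11 lower in D2 libraries. Of all filtered genes 34.6% were called in D1 (1144 higher and 2774 lower) and 28.5% in D2 libraries (887 and 2302). With edgeR these splits were 11 to 11 and 15 to 10, where it called 28.6% and 24.0% of all filtered genes. Rgs4, a G protein regulator, was higher in dorsal striatum in both lines (1.37 ± 0.13 in D1, 1.44 ± 0.13 in D2; SE, limma adjusted p up to 1.87e-10). Lower in dorsal striatum were Ddc, the decarboxylase of dopamine synthesis (-2.06 ± 0.13 in D1 and -1.89 ± 0.17 in D2), Gnai2 in D1 (-1.26 ± 0.13) and Gnai1 in D2 (-1.63 ± 0.15; SE, limma adjusted p up to 1.06e-09). Ddc averaged under 1 CPM in dorsal striatum and passed the filter through ventral libraries. In prefrontal cortex 17 of 43 were higher and 20 lower than in dorsal D1 libraries, and 16 of 44 higher and 23 lower than in ventral ones, beside 54.8% and 62.8% of all filtered genes. Gnas, which encodes Gs, was 2.51 ± 0.12 and 1.97 ± 0.08 higher in cortex, at 899 ± 151 CPM (SD, n = 19). Adrbk2 was 2.45 ± 0.15 and 1.87 ± 0.11 higher. Ppp1r1b, which encodes the cAMP target DARPP-32, was at -4.93 ± 0.25 and -4.56 ± 0.23, and Gng7 at -4.42 ± 0.19 against ventral striatum (SE, limma adjusted p up to 4.69e-18). In the interaction 3 of 44 were called, all positive: Gnai1 (0.81 ± 0.19), Maob (0.92 ± 0.24) and Gnas (0.65 ± 0.18; SE, limma adjusted p from 0.00835 to 0.0261). Of all filtered genes 2.64% were called, 229 positive and 84 negative. With quantile normalization 2 of the 44 were called (3.09% of all filtered genes), and within EM libraries 1 was, Maob (1.95%).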

How the data were processed

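Per the labels' protocols, mRNA was pulled down with tagged ribosomes, cDNA was amplified, and read pairs of 50 bases were sequenced. Per the submitters' processing notes, reads were trimmed (Trim Galore 0.4.2, cutadapt 1.9.1) and aligned with HISAT2 to GRCm38; the counter and annotation are not given in the sources used here. The authors deposited CPM values. Dividing by each column's step gave whole reads for 100% of values (tolerance 0.01 read), used for edgeR 4.0.16 and DESeq2 1.42.0 as alternatives. Libraries held 21.4 to 80.4 M (mega) reads; no molecular identifiers are described, so depth bounds counting error only. Groups came from the labelled region and receptor. Two-sided tests used limma 3.58.1 (lmFit, eBayes with trend) on log2(CPM + 0.5) over all genes, with Benjamini-Hochberg adjustment; single values used permutation tests (100000 resamples, exact where a group had under 10 libraries). Named genes were the 5 members, the 5 genes most like each member that had at least 1 CPM in 14 libraries (among genes averaging 5 CPM in some group, 1 CPM for scarce members), 2 neighbours on each side, and the 2 largest called differences each way among 46 pathway genes; 1 of these is not reported here. Members and lists were chosen with earlier results of these data known. The limma and edgeR scripts were tested on simulated data.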

Additional observations from a re-analysis of the deposited data

Results flagged for a closer look

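The difference between the D1 and D2 lines was itself tested between the regions, and limma called it for Drd2 and Drd3. For Drd2 the receptor by region interaction was -1.40 on the log2 scale: the D1 minus D2 difference was -7.47 in dorsal and -6.07 in ventral striatum (limma adjusted p = 1.82e-05). Its direction held in all 60 fits that left out 1 striatal library, between -1.47 and -1.31, with a call in each. For Drd3 the interaction was -0.74 (limma adjusted p = 0.0348), from 0.51 in dorsal and 1.25 in ventral striatum. That call did not hold across tools: edgeR gave 0.69 (adjusted p = 0.598) and DESeq2 0.71 (adjusted p = 0.553), with the opposite sign, and limma lost it in 4 other settings. Means of Drd3 were 4.56-fold apart in dorsal and 3.02-fold apart in ventral striatum, so the order of the regions depends on whether differences or ratios are compared.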

How the results depend on the processing

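Over the other tools, scalings, filters and covariates tried, 439 values kept their direction and side of the threshold, 20 changed sign, 11 lost a call and 3 gained one. Calls of Drd1a and Drd2 between lines and of all 4 called genes against cortex held throughout. Lost calls were Drd3 in D1 against D2 dorsal striatum (0.46 within EM libraries and 0.46 with the name code), Drd5 in the ventral comparison (-0.52 within EM libraries, -0.62 with the share of reads in genes) and Drd2 between regions in D1 (-0.41 with edgeR, -0.40 with DESeq2). The Drd3 interaction was -0.66 scaled to reads in genes, -0.42 with a pseudocount of 0.1, -0.83 within EM libraries and -0.46 with array weights, all uncalled, and 0.69 with edgeR and 0.71 with DESeq2. The Drd1a interaction was called with array weights (0.71), and Drd4 by males in the pool with edgeR (-2.58). The correlation of Drd2 with D2 markers in D1 dorsal striatum gained a call by r with 2 markers (0.53, and 0.35 without the 2 farthest libraries) while rho lost it (0.50, adjusted p = 0.0628), as rho also did within EM libraries (0.55, adjusted permutation p = 0.0866). That in D1 ventral striatum lost its call by r within EM libraries (0.61) and not by rho (0.67).

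Uncalled differences near 0 changed sign. Drd5 between regions in D1 was 0.0461 with edgeR, 0.0507 with DESeq2, 0.0107 with median-ratio scaling, 0.0153 with quantile scaling, 0.0769 within EM libraries, 0.0113 with the name code, 0.0017 with the share of reads in genes and 0.0535 with array weights. Drd4 was 0.0020 within EM libraries in the ventral comparison and -0.0084 with quantile scaling in cortex against dorsal striatum. By males in the pool, Drd5 was -0.0543 with edgeR, -0.0425 with DESeq2, -0.0181 with a pseudocount of 0.1, -0.00091 with the share of reads in genes and -0.0139 with array weights, and Drd2 was -0.0958 within EM libraries, -0.0550 with the name code and -0.0245 with array weights. The cause was not tested for any of these. Adjusting for how much of each library fell in genes, 10.7% of filtered genes were called between lines in ventral and 20.5% in dorsal striatum, beside 47.7% and 25.9% without it.

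Leaving out 1 library at a time, chosen after seeing the data, changed 5 results. The Drd3 interaction ran from -0.82 to -0.66 and lost its call in 8 of 60 fits (D1 dorsal replicates 3, 5 and 13, D1 ventral 1 and 14, D2 ventral 5, 6 and 7), with adjusted p up to 0.0589. The Drd1a interaction ran from 0.63 to 0.80. Uncalled signs changed for Drd5 between regions in D1 (-0.0357 to 0.0324), Drd5 by males (-0.0156 to 0.0534) and Drd4 in the ventral comparison (-0.0422 to 0.0063). Of the 5 genes most like a member, 2 were shared with the Spearman list for Drd1a, Drd3 and Drd5, and within EM libraries 3 for Drd1a and 2 for Drd5. No paired analysis was run, because replicate numbers were given in accession order and the labels do not say which libraries share mice. Runs of consecutive library names within a line were not taken as pairs, so any pairing between regions was left out of the tests. Drd3, Drd4 and Drd5 rest on few reads, which limits the differences that could be called.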
